A study of Mus musculus with 11 samples.

Results

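Immediate early genes were followed in RNA-seq of embryonic mouse forebrain in which Kif20a, a mitotic kinesin, had been knocked out. The 10 genes were chosen by symbol (Fos, Fosb, Jun, Junb, Atf3, Egr1, Klf2, Klf4, Ier2 and Dusp1), and all 10 were found among the 20475 genes of each of 2 tables. All embryos were at E12.5. The germline table held 3 wild-type and 3 knockout libraries, the knockout carrying a knockout-first allele in which a cassette with LacZ and neomycin resistance interrupts Kif20a. That line was derived from a single ES cell clone and crossed to C57BL/6J mice. The inducible table held 2 control and 3 knockout libraries from litters given tamoxifen on earlier days of gestation. The inducible knockouts carried Nestin-CreERT2, a recombinase active in Nestin-expressing neural progenitors once tamoxifen is given, together with Kif20a fl/fl, and their controls, labelled wild type, were Kif20a fl/fl littermates. Cells outside the Nestin lineage therefore kept Kif20a in the inducible knockouts, whereas the germline allele affects every cell. Deletion within that lineage may also be incomplete. The paper saw marked Kif20a signal left in the inducible knockouts and proposes varied recombinase levels in cortical cells as a possible reason. The labels call the tissue forebrain and the cells neural, and the study's methods speak of cortex. The labels do not say whether libraries of a group came from separate embryos, so p-values measure the spread between these libraries, which may in part be technical.

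Immediate early genes are transcribed within minutes of a stimulus, from factors that are already bound to or waiting at their promoters, without new protein synthesis. Growth factors, calcium entry, cell stress and the handling of tissue all induce them, mainly through MAP kinases that act on serum response factor at the CArG box and through CREB at the cyclic AMP response element. Most encode transcription factors. FOS and FOSB pair with JUN and JUNB to form AP-1, ATF3 is a related stress-induced factor, and EGR1 is a zinc finger activator. KLF2 and KLF4 are zinc finger factors best known in endothelium, where blood flow keeps them high, and KLF4 is also a pluripotency factor. IER2 is a nuclear protein of the same early wave, and DUSP1 is a phosphatase that switches the MAP kinases off. Because dissection alone can raise these genes, their level in each library is given before any comparison of genotypes.

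The stretches upstream of 4 members show the control elements by which the family is known. They were read from the NCBIM37 (mm9) genome, 5′ to 3′ on the strand of the gene, within 1000 bases before the annotated start, with the matched element in capitals. The Fos element, a CArG box, lies 309 to 300 bases before the start at chr12:86814521-86814550 (plus strand), and the Fosb CArG box lies 272 to 263 bases before the start at chr7:19895647-19895676 (minus strand). The Dusp1 cyclic AMP response element lies 96 to 89 bases before the start at chr17:26645543-26645570 (minus strand), and that of Ier2 lies 45 to 38 bases before it at chr8:87186779-87186806 (minus strand).
Fos: cacaggatgtCCATATTAGGacatctgcgt
Fosb: tggccgagctCCTTATATGGctaattgcgt
Dusp1: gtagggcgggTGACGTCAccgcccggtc
Ier2: ggtgttgcagTGACGTCActctcagtat
On both strands, a CArG box was found in 3 of the 10 members (Egr1 with 5 matches, Fos and Fosb with 1 each) and in 5.62% of 22367 protein-coding genes. The cyclic AMP response element TGACGTCA was found in 2 members, Ier2 and Dusp1, and in 2.56% of genes. The AP-1 site TGANTCA was found in Fos and Klf4 and in 23.6% of genes, and the EGR site GCGNGGGCG in 5 members (Fosb, Jun, Egr1, Klf2 and Klf4) and in 8.14% of genes. Junb and Atf3 held none of these letters in the window. These matches describe sequence and were not tested for use.

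In wild-type forebrain the members ranged from abundant to barely detected. On a scale of normalized counts per kilobase of exon, Jun was highest in the germline wild-type libraries at a mean of 306 (range 283 to 346), at the 85.6th percentile of genes with a known length. Ier2 followed at 140 (121 to 153) and Dusp1 at 102 (79.0 to 124), and these neighbours overlapped. The middle group held Klf2 at 19.9 (19.1 to 20.5), Egr1 at 15.3 (10.01 to 19.4), Klf4 at 14.9 (11.2 to 17.0) and Junb at 11.9 (8.77 to 13.8), each overlapping the next. Atf3 lay below them at 5.04 (4.17 to 5.93), and Fos at 2.70 (0.782 to 4.05) stood only at the 30.1st percentile. Fosb was last at 0.275 per kilobase.

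The inducible wild-type libraries, which were normalized separately, gave nearly the same order. Jun was again first at 553 per kilobase, then Ier2 at 367, Dusp1 at 204 and Klf2 at 48.8, with no overlap among these 4. Klf4 at 25.7 (21.7 to 29.6) overlapped both Junb at 27.4 (25.4 to 29.5) and Egr1 at 23.6 (22.6 to 24.7), which did not overlap each other. Atf3 at 11.6, Fos at 4.40 and Fosb at 0.820 were the lowest in the same order as before. Fos, the gene usually taken as the readout of recent stimulation, was thus among the scarcer members in wild-type tissue of both tables. It was also the least steady. The SD of log2 values among wild-type libraries was 1.02 for Fos in the germline table and 1.07 in the inducible table, larger than in 98.2% and 99.5% of genes tested. The medians over all genes tested were 0.183 and 0.0795. These genes were not matched to Fos for level, and Fos held few counts. Its 1.84 normalized counts in germline wild-type replicate 3 lay under 3, the floor below which values were given no order.

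Kif20a, the targeted gene, was reduced in both knockouts. It held 2456, 2295 and 2680 normalized counts in germline wild-type and 409, 374 and 503 in germline knockout libraries, and fell from 4760 and 4844 to 3125, 2915 and 2853 in the inducible table (limma, adjusted p = 0.00845 and 0.0107). Summed values per library ran from 13048700 to 15551300 in the germline and from 24118500 to 24497300 in the inducible table. These are sums after scaling by the authors, so the depth in reads is unknown. Germline knockout replicate 2 stood apart from the other libraries, at 91.2 on the first principal component (58% of the variance) against -38.4 to 3.84 for the other germline libraries. It was the highest library for 33.8% of all genes tested and the lowest for 30.5%, so the values of each member in that library are given below. Radial glial markers summed to between 49630 and 56236 normalized counts in every germline library, and neuronal markers to between 30046 and 117691.

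**Figure D1:**
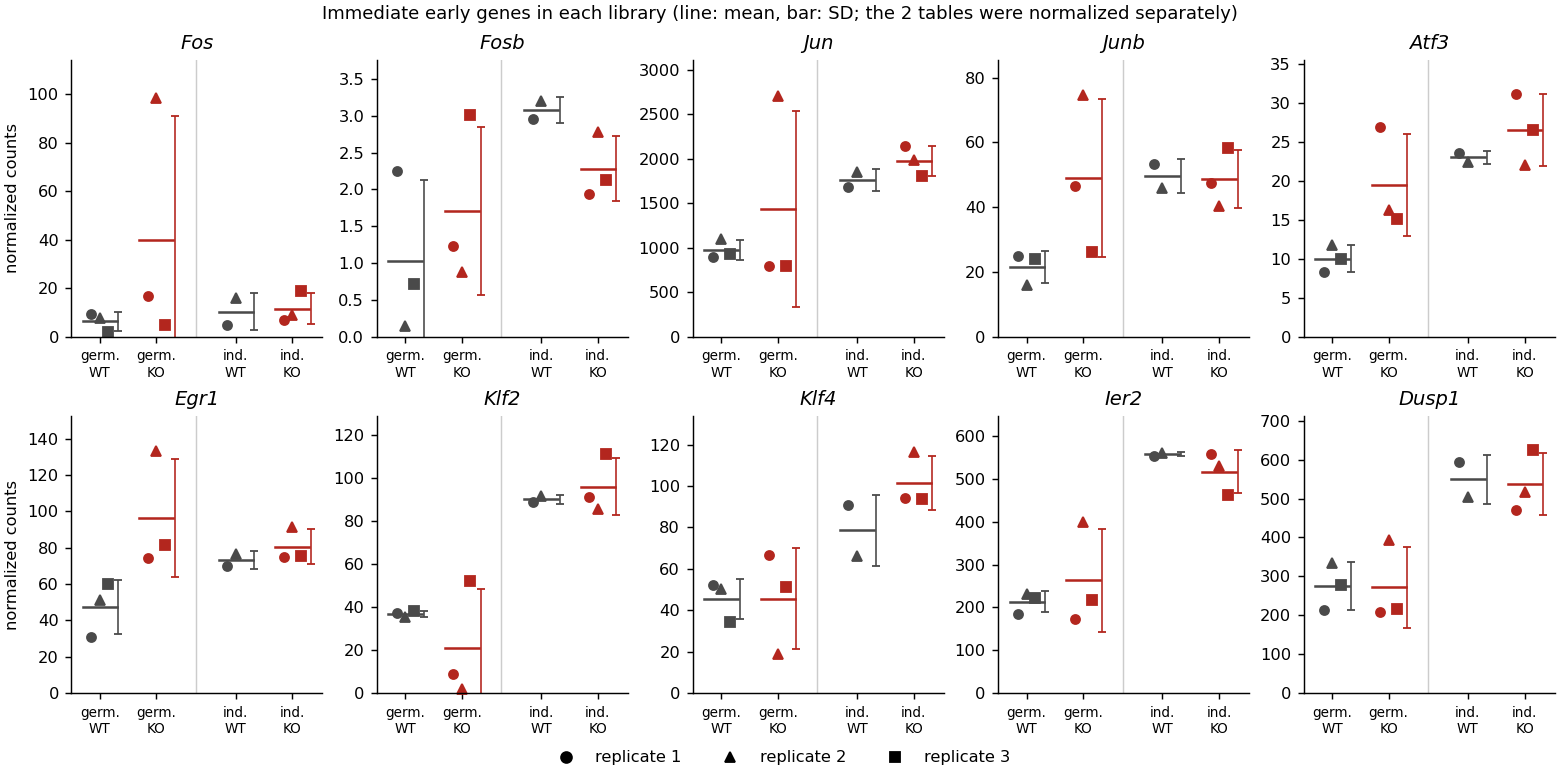
Normalized counts (vertical axis, from 0) of the 10 immediate early genes in each library, by group (germ., germline; ind., inducible; WT, wild-type; KO, knockout). Points are libraries by replicate number, lines are group means and bars are SD, drawn only above 0. Germline knockout replicate 2 (triangle) lies far above the rest for Fos (98.2) and Jun (2706) and lowest for Klf2 (1.59).

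In the germline knockout 1 of the 9 members tested, Egr1, rose past the study's thresholds (at least 1.5-fold, with P at or below 0.05 before adjustment), which 2.74% of all 13938 genes tested passed in either direction and 2.07% passed upward. No member passed an adjusted p of 0.05, which 0.00717% of genes did. Fosb had a mean under 10 normalized counts and was not tested. The groups did not overlap for 3 of 9 members, Egr1, Junb and Atf3, all higher in the knockout. Among all genes tested, 13.5% did not overlap in either direction and 5.9% did not overlap upward. The median log2 fold change of the 9 members was 0.30, against -0.043 for all genes tested, and 6 of the 9 were positive. No test was made on that median. Fos, with a wild-type mean of 6.36, reached the mean of 10 needed for testing only through knockout replicate 2. With Fos left out 5 of 8 were positive and the median was 0.26.

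Egr1 (chr18:35020861-35024638, plus strand, protein coding, with 8 exon bases shared with the antisense gene Gm17507) held 31.0, 51.2 and 60.2 normalized counts in wild-type and 74.2, 134 and 81.4 in knockout libraries. Every knockout library lay above every wild-type library, replicate 3 included. The means were 47.5 ± 14.9 (SD, n = 3) in wild-type and 96.4 ± 32.4 (SD, n = 3) in knockout libraries. On the log2 scale this was a change of 1.01 with an SE of 0.36, with p = 0.0273 by limma and p = 0.1 by an exact two-sided permutation test, which cannot go lower at this group size. The adjusted p of limma was 0.779. Without knockout replicate 2 the call was lost, as it was without wild-type replicate 1 or 2. The log2 fold change was at least 0.74 over all omissions of 1 library, with adjusted p from 0.354 to 0.998. Without knockout replicate 2, 8 members could be tested and none passed the thresholds, although 8.77% of genes did. Without knockout replicate 3, 4 members passed (Egr1, Fos and Junb higher, Klf2 lower), as did 7.33% of genes. Fos again reached the mean needed for testing only through knockout replicate 2.

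Of the AP-1 genes, Fos (chr12:86814840-86818223) gave the widest swing. It held 9.53, 7.71 and 1.84 normalized counts in wild-type and 17.0, 98.2 and 5.03 in knockout libraries. Knockout replicate 2 was 15.4 times the wild-type mean and replicate 1 was 2.67 times, while replicate 3 lay within the wild-type range, so the groups overlapped. The log2 fold change of 1.79 (SE 1.07) did not pass (limma, p = 0.139, adjusted p = 0.779, exact permutation p = 0.3). It was 1.204 without wild-type replicate 3 and 2.73 without knockout replicate 3, where it passed, and without knockout replicate 2 the gene was too low to be tested.

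Junb (chr8:87500811-87502617), a partner of FOS, showed the same order of knockout libraries on a smaller scale. It held 24.9, 15.8 and 24.0 normalized counts in wild-type and 46.4, 74.7 and 26.1 in knockout libraries. The groups did not overlap, but knockout replicate 3 was only just above the highest wild-type library. Its log2 fold change was 1.05 (SE 0.46; limma, p = 0.0539, adjusted p = 0.779, exact permutation p = 0.1), narrowly outside the threshold. It was 0.69 without knockout replicate 2, and passed without knockout replicate 3, at 1.44.

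Jun (chr4:94715725-94718913) held 901, 1103 and 925 normalized counts in wild-type and 799, 2706 and 798 in knockout libraries. A single library made the difference here. Knockout replicate 2 was 2.77 times the wild-type mean, and both other knockout libraries lay below all wild-type libraries. The log2 fold change of 0.30 (SE 0.46; limma, adjusted p = 0.878) turned to -0.28 without that library. Jun shares 232 exon bases with the antisense transcript BC042782, and whether counting used strand is not stated.

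Fosb (chr7:19888070-19895394) held 2.25, 0.140 and 0.710 normalized counts in wild-type and 1.23, 0.880 and 3.01 in knockout libraries. All but 1 of these values lay under 3 normalized counts, taken as the level below which values have no order, so nothing can be said of a change. Where Fos was highest, in knockout replicate 2, Fosb held 0.880. Atf3 (chr1:192994175-193007219) held 8.28, 11.8 and 9.98 normalized counts in wild-type and 27.0, 16.3 and 15.1 in knockout libraries. Its groups did not overlap, and unlike Fos, Jun and Junb it was highest in knockout replicate 1. Its log2 fold change was 0.86 (SE 0.44; limma, p = 0.0885, adjusted p = 0.779, exact permutation p = 0.1).

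The Krüppel-like factors went the other way in knockout replicate 2. Klf2 (chr8:74842932-74845555) held 37.1, 35.2 and 37.9 normalized counts in wild-type and 8.82, 1.59 and 52.2 in knockout libraries. The wild-type libraries were nearly identical, with an SD of log2 values of 0.052 that only 6.26% of genes undercut. The knockout libraries were spread by an SD of 2.19, wider than in 98.5% of genes. Replicates 1 and 2 were far below wild-type and replicate 3 was above it. The log2 fold change of -1.77 (SE 1.01) did not pass (limma, p = 0.122, adjusted p = 0.779, exact permutation p = 0.4). It was -2.90 without knockout replicate 3, past the thresholds, and -0.72 without knockout replicate 2.

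Klf4 (chr4:55540013-55545347) held 52.1, 50.1 and 34.3 normalized counts in wild-type and 66.6, 18.8 and 51.2 in knockout libraries. Only knockout replicate 2 was below the wild-type range, and replicate 1 was above it. The group means were the same, 45.5 ± 9.75 against 45.6 ± 24.4 (SD, n = 3 each). The low Klf2 of knockout replicate 1 therefore had no counterpart in Klf4.

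Ier2 and Dusp1, abundant members, differed little in the mean. Ier2 (chr8:87185230-87186751) held 185, 232 and 223 normalized counts in wild-type and 173, 401 and 217 in knockout libraries, with a log2 fold change of 0.22 (SE 0.32; limma, adjusted p = 0.873). Dusp1 (chr17:26642535-26645464) held 213, 336 and 278 in wild-type and 207, 392 and 217 in knockout libraries, with a log2 fold change of -0.057 (SE 0.30; limma, adjusted p = 0.969). Both were highest in knockout replicate 2, at 1.88 and 1.42 times the wild-type mean, and overlapped wild-type in the other knockout libraries or lay just below it.

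**Figure D2:**
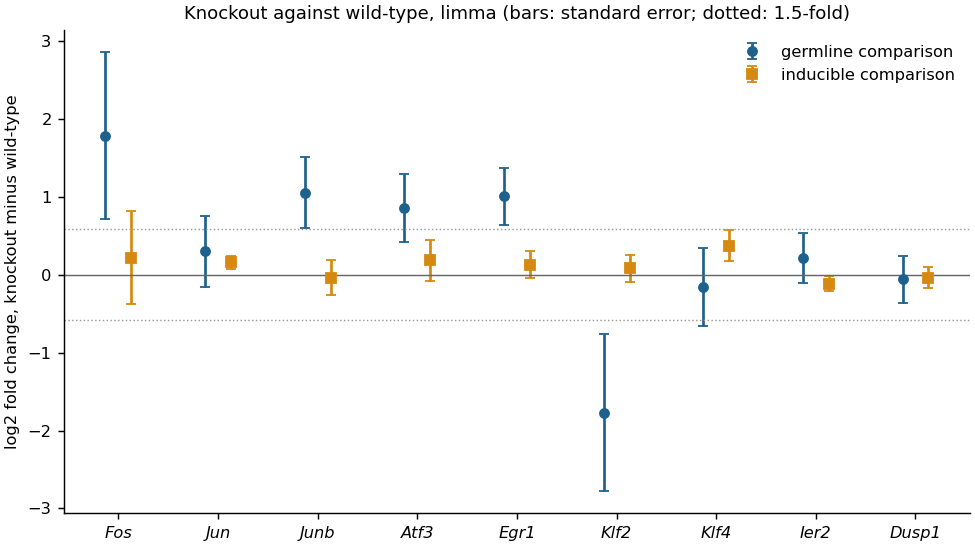
Log2 fold change of knockout minus wild-type (vertical axis) for the 9 members tested, with bars of 1 standard error, in the germline (circles) and inducible (squares) comparison. Dotted lines mark 1.5-fold. The germline estimates run from -1.77 (Klf2) to 1.79 (Fos), and the inducible ones stay between -0.11 (Ier2) and 0.38 (Klf4).

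Read library by library, the 3 germline knockouts had different profiles over the same genes. Knockout replicate 2 was the highest of the 6 libraries for 6 of the 9 members and the lowest for 2, Klf2 and Klf4. In it 4 members exceeded the wild-type mean by more than 1 on the log2 scale, as 6.11% of all genes did. The median difference over members was 0.91. Fos is part of both counts, and it reached the mean needed for testing only through this library. Its place in them is therefore partly set by that filter, and the share of all genes is no fair measure for it. The others above 1 were Junb, Egr1 and Jun, at 1.77, 1.52 and 1.48. In knockout replicate 1, 3 of 9 members were above 1 on the log2 scale, Fos, Atf3 and Junb, against 5.84% of all genes. Fos was open to this count, too, only through knockout replicate 2. Jun, Ier2 and Dusp1 differed from the wild-type mean by -0.28, -0.30 and -0.38 in knockout replicate 1. In knockout replicate 3 no member exceeded 1, and the largest difference was that of Egr1, 0.82. Egr1, Junb and Atf3 were the members above all wild-type libraries in all 3 knockouts.

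**Figure D3:**
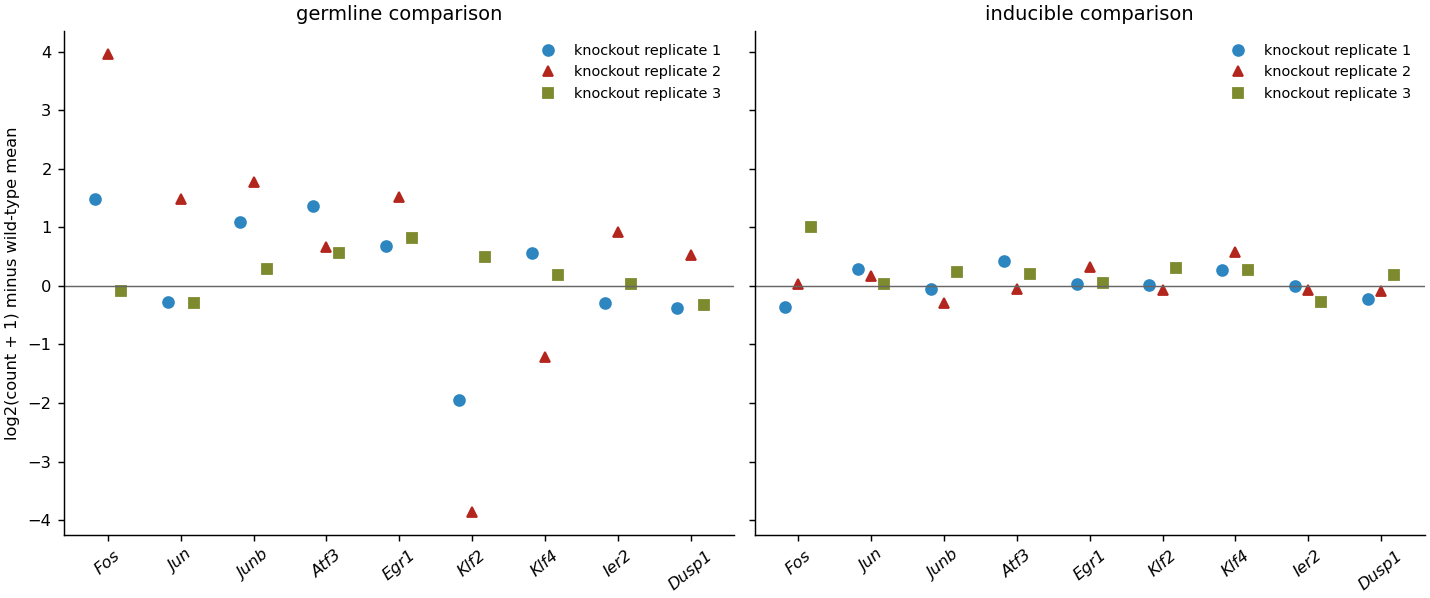
Difference of each knockout library from the mean of the wild-type libraries (vertical axis, log2 of the normalized count plus 1) for the 9 members tested, in the germline (left) and inducible (right) tables. In the germline table replicate 2 reaches 3.96 for Fos and -3.86 for Klf2, and in the inducible table no member exceeds 1.

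In the inducible knockout none of the 9 members tested passed the thresholds, by limma or without its mean-variance trend, and none had an unadjusted P under 0.05. Of all 14081 genes tested, 1.29% passed the thresholds and 0.0355% had an adjusted p of at most 0.05. Only Klf4 did not overlap between groups, 1 of 9 members against 22.6% of all genes. It held 90.7 and 66.3 normalized counts in control and 94.2, 117 and 93.5 in knockout libraries. Its log2 fold change was 0.38 (SE 0.20; limma, p = 0.0962, adjusted p = 0.860, exact permutation p = 0.1), and did not pass. It was 0.15 without control replicate 2 and 0.60 without control replicate 1. Only the latter passed the thresholds, with 1 control library left, which is then assumed to vary like the knockout libraries. Adjusted p lay between 0.767 and 0.998 over all omissions.

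The 3 genes that did not overlap in the germline table overlapped here. Egr1 held 69.9 and 76.7 normalized counts in control and 74.8, 91.7 and 75.4 in knockout libraries, a log2 fold change of 0.13 (SE 0.17; limma, adjusted p = 0.925). Junb held 53.2 and 45.9 against 47.6, 40.4 and 58.2, and Atf3 held 23.7 and 22.4 against 31.2, 22.0 and 26.5. For each, at least 1 knockout library lay between or below the controls. The tables were normalized separately and the difference between the 2 comparisons was not tested.

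Fos was as uneven within groups of the inducible table as between them. It held 4.89 and 15.8 normalized counts in control and 6.75, 9.15 and 18.9 in knockout libraries (log2 fold change 0.22, SE 0.59; limma, adjusted p = 0.965). Jun held 1677 and 1853 against 2145, 1983 and 1809, and Klf2 held 88.7 and 91.6 against 91.3, 85.6 and 111. The low Klf2 values of the germline knockouts had no counterpart here. Ier2 held 555 and 562 against 559, 530 and 462, and Dusp1 held 593 and 505 against 471, 517 and 625. Fosb held 2.95 and 3.20 against 1.94, 2.78 and 2.13, about the floor of 3. The SD of log2 values among wild-type libraries had a median of 0.102 over the members in this table and 0.326 in the germline table, and among knockout libraries 0.194 and 0.741. Over all genes tested the medians were likewise larger in the germline table and in knockouts. They were 0.0795 (inducible) and 0.183 (germline) among wild-type libraries, and 0.0946 and 0.307 among knockout libraries.

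A further 50 early response genes were listed by general knowledge, such as other FOS and JUN family members, the NR4A receptors and dual-specificity phosphatases, and 47 could be tested in each table. In the germline knockout 4 of 47 rose past the thresholds and none fell, against 2.74% of all genes. The median log2 fold change was 0.22 and 30 of 47 were positive. None passed an adjusted p of 0.05, while 5 had an unadjusted P under 0.05. Fosl2, a FOS relative, held 71.7, 50.1 and 41.8 normalized counts in wild-type and 200, 164 and 70.3 in knockout libraries. Its log2 fold change was 1.30 (SE 0.43; limma, adjusted p = 0.779). Ier3, an early gene tied to cell survival, held 16.4, 13.2 and 20.5 in wild-type and 414, 386 and 18.1 in knockout libraries, a log2 fold change of 3.06 (SE 1.14; limma, adjusted p = 0.779). It was at wild-type level in knockout replicate 3. These calls depended on single libraries. Without knockout replicate 3, 14 rose and 2 fell, against 7.33% of all genes in either direction. None passed without wild-type replicate 2 or knockout replicate 1, where 179 and 201 of all genes did. Without knockout replicate 2, 2 rose (Fosl2 and Ctgf) and 2 fell (Arc and Myc), against 8.77% of all genes. Leaving out wild-type replicate 1 kept Fosl2 alone (157 genes in all). Leaving out wild-type replicate 3 gave Zfp36l1, higher, and Ier5, lower (354 genes in all).

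The orphan nuclear receptor Nr4a1 was the one of these 4 whose groups did not overlap, as was so upward for 5.9% of all genes. It held 45.0, 47.8 and 46.0 normalized counts in wild-type and 85.8, 92.6 and 57.3 in knockout libraries, a log2 fold change of 0.72 (SE 0.28; limma, adjusted p = 0.779). Zfp36l1, which promotes the decay of AU-rich messages, held 1800, 2702 and 2933 normalized counts in wild-type and 4280, 4152 and 2784 in knockout libraries, a log2 fold change of 0.60 (SE 0.24; limma, adjusted p = 0.779). With a replicate block the calls of Nr4a1 and Zfp36l1 were lost. Bhlhe40, a transcriptional repressor, held 1682 in knockout replicate 2 against 873 and 112 in replicates 1 and 3, and its log2 fold change of 1.98 (SE 0.90) did not pass. The most negative values were those of Dusp2 (-0.59), Nfkbia (-0.58) and Klf10 (-0.53), none of which passed. These 3 were lowest in knockout replicate 2, at 2.53, 93.0 and 122 normalized counts.

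In the inducible knockout 2 of the 47 passed, both downward, against 1.29% of all genes. Nr4a3 held 38.4 and 45.7 normalized counts in control and 20.4, 34.5 and 16.1 in knockout libraries (log2 fold change -0.87, SE 0.34; limma, adjusted p = 0.825). Gadd45b, a stress gene that promotes MAP kinase signalling, held 71.9 and 63.0 against 47.7, 52.9 and 34.2 (log2 fold change -0.60, SE 0.24; limma, adjusted p = 0.825). For both genes the groups did not overlap, as was so for 22.6% of all genes in either direction. Each call held without knockout replicate 2 and was lost without any other single library. In the germline comparison the log2 fold changes of Nr4a3 and Gadd45b were 0.16 and 1.03. Neither passed there. The 4 genes called in the germline comparison had log2 fold changes from -0.22 (Ier3) to 0.050 (Fosl2) in the inducible one.

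**Figure D4:**
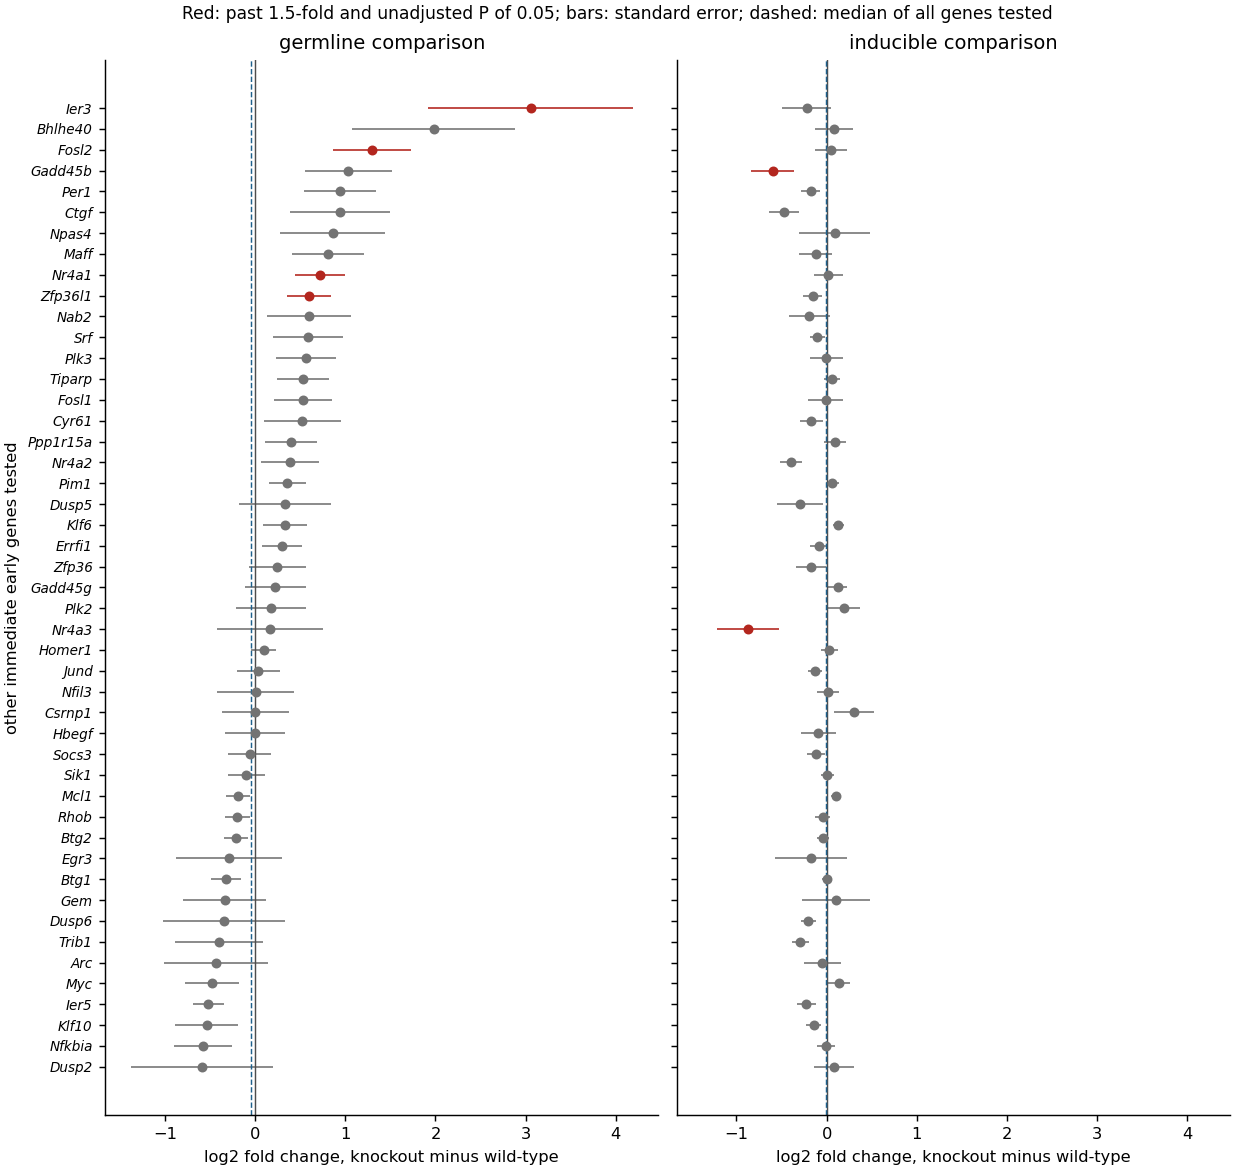
Log2 fold change of knockout minus wild-type (horizontal axis, bars of 1 standard error) for the 47 other immediate early genes tested in the germline table, ordered by that value, with the same genes in the inducible table at the right. Red points passed both thresholds (1.5-fold, P of 0.05 before adjustment), and were 4 genes (all higher) on the left and 2 genes (both lower) on the right.

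Of 35 kinases and factors known to act above these genes, 1 (against 2.74% of all genes) rose past the thresholds in the germline comparison, and none fell. It was Map2k1, the kinase MEK1 above ERK, with 437, 561 and 527 normalized counts in wild-type and 1002, 820 and 542 in knockout libraries and a log2 fold change of 0.59 (SE 0.24; limma, adjusted p = 0.779). Among omissions of 1 library that call held only without knockout replicate 3, and it was lost with a replicate block. Srf, which encodes serum response factor, reached 0.59 (SE 0.39) and did not pass. It held 950 normalized counts in knockout replicate 2 against 433 and 311 in replicates 1 and 3. In the inducible comparison 0 of 35 passed, and 2 had an unadjusted P under 0.05. Heat shock and dissociation stress genes, 16 tested in each table, gave no call in either direction in either table, with 2 (germline) and 0 (inducible) at an unadjusted P under 0.05. Their summed level was lower in germline knockout replicates 1 and 2, at 129620 and 115816 normalized counts, than in wild-type libraries, at 147624 to 174698.

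Other gene groups differed between the same germline libraries. Of 28 hypoxia and glycolysis genes 18 rose past the thresholds and none fell in the germline comparison, against 2.07% of all genes upward. This list was chosen with earlier results of these data known, and the paper itself lists Ldha, Eno1 and Pgk1 as raised in these libraries. The count is therefore a description and no independent support. They summed to between 36815 and 37972 normalized counts in wild-type and to 111121, 163606 and 41877 in knockout libraries. Lactate dehydrogenase Ldha held 16659, 15954 and 8146 normalized counts in the knockout against a wild-type mean of 6370. In the inducible comparison 1 of 27 rose, against 1.29% of all genes passing in either direction. The part of this response in the values of the members was not tested.

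Cell type markers also differed between these libraries. In the germline comparison, though, none of the endothelial (21 tested), microglial (13), erythroid (10), cranial mesenchymal (14) and neuronal (16) markers passed. Of 12 radial glial markers 1 did, downward, against 2.74% of all genes in either direction. In knockout replicate 2 mesenchymal markers summed to 1436 normalized counts, against 6776 to 11370 in wild-type and 26803 and 13853 in knockout replicates 1 and 3. Its level of the collagen Col3a1 was 2.46, against 1838 or more in every other library. Microglial markers summed to 53.5 there against 682 to 1068 in wild-type, and erythroid markers to 21909 against 64421 to 93086. Neuronal markers summed to 117691 there, against 55582 to 67007 in wild-type and 30046 and 36985 in knockout replicates 1 and 3. The part of these differences in the values of the members was not tested. In bulk RNA fewer cells of a type and less RNA per cell cannot be told apart.

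Because KLF2 is best known in endothelium, it was set beside the vascular markers. The 21 endothelial markers summed to 3012, 2377 and 4432 normalized counts in germline wild-type and to 5046, 1225 and 3881 in knockout libraries. Knockout replicate 1 thus had the highest endothelial sum of the table together with a Klf2 level of 0.240 times the wild-type mean. As a percent of the endothelial sum, Klf2 was 1.23%, 1.48% and 0.855% in wild-type and 0.175%, 0.130% and 1.35% in knockout libraries. With the value of knockout replicate 2 set to the floor of 3 normalized counts its share was 0.245%. In the inducible table the share ran from 1.07% to 1.46% over all 5 libraries. The cause of the low Klf2 values in germline knockout replicates 1 and 2 was not tested. In replicate 2 the endothelial sum was 0.374 times the wild-type mean, while Klf2, at 1.59 normalized counts, was under the floor.

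**Figure D5:**
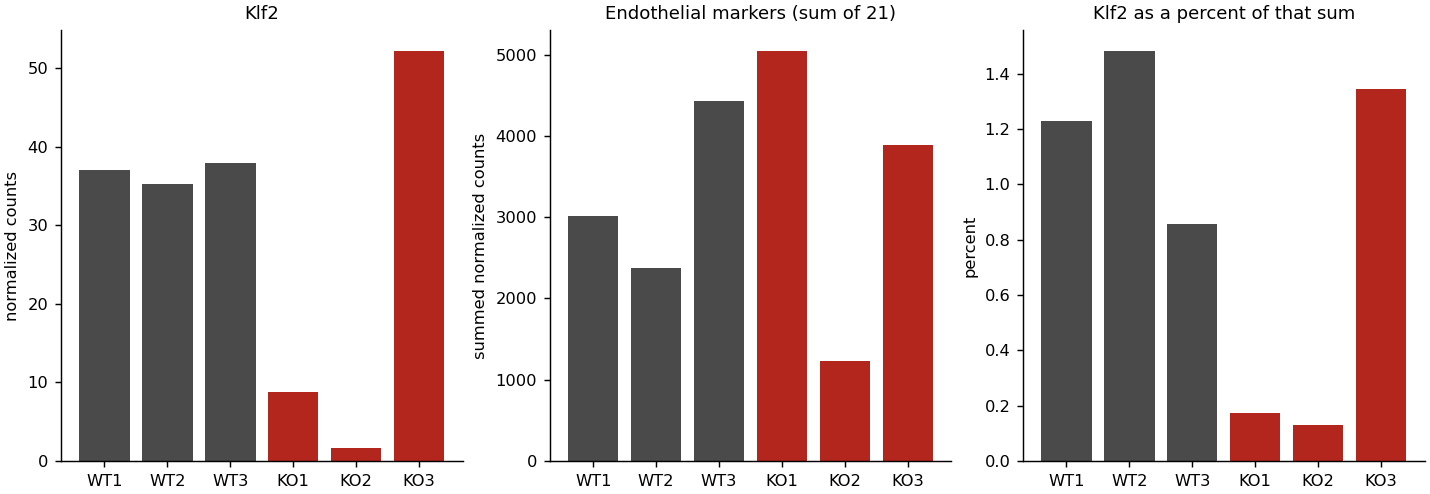
Klf2 (left, normalized counts), the sum of 21 endothelial markers (centre, normalized counts) and Klf2 as a percent of that sum (right) in each germline library (WT, wild-type; KO, knockout). Klf2 is 0.175% and 0.130% of the endothelial sum in knockout replicates 1 and 2, and between 0.855% and 1.48% in the other libraries.

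The sex of the embryos was not balanced. The 4 Y-linked genes Kdm5d, Eif2s3y, Uty and Ddx3y summed to 1714, 9.83 and 4582 normalized counts in germline wild-type and to 4.49, 0 and 1376 in germline knockout libraries. In the inducible table they summed to 1.96 and 4.24 in control and to 3209, 2389 and 3101 in knockout libraries, so sex and genotype cannot be told apart there. In the germline table Egr1 had a log2 fold change of 0.90 once the Y-linked level was a covariate (limma, adjusted p = 0.998), and no member passed the thresholds in that fit. Fos went to 0.86 and Klf2 to -0.91 in it, and Ier3, at 2.14, was no longer called. The share of all genes called in that fit was not counted, so the lost calls cannot be set against it. An effect of sex on these genes was not tested.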

How the data were processed

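Poly(A) RNA of E12.5 forebrain was sequenced by the authors, aligned to mm9 with TopHat (1.2.0 in the submitters' processing notes, a later version in the paper), counted on RefSeq exons and normalized in edgeR with the trimmed mean of M-values. The deposited signal is this normalized count per gene, neither log-scaled nor divided by length, and each table was normalized alone, so no test was made between tables. Low values are not whole multiples of a read, so no count model was used, and the depth in reads is unknown. Groups and replicate numbers come from the sample labels, and 0 per-sample columns were left unused.

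Values were analysed as log2(normalized count + 1) with limma 3.58.1 in R 4.3.3 (two-sided, lmFit followed by eBayes with trend), over genes with a mean of at least 10. A call needed at least 1.5-fold and P at or below 0.05 before adjustment, as in the study, and Benjamini-Hochberg adjusted p-values over all genes are given beside. Under 3 normalized counts values were given no order. Fits were tested on simulated data first. Gene lengths and positions are from GENCODE M1 on NCBIM37, with lengths for 93.1% of genes. The upstream windows were shown after the motif search. The RefSeq promoter table (GRCm38.p6) held 8 of the 10 members and was not printed, because its Fos window held none of the motifs. All members are named, and from the other lists those past the thresholds, the largest changes (up to 3 in each direction) or the most abundant genes. Members and lists were chosen with earlier results of these data known. Alternatives were other pseudocounts, no filter, quantile normalization, a scale per kilobase and library total, no trend, a replicate block, a Y-linked covariate and each library left out.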

Additional observations from a re-analysis of the deposited data

How the results depend on the processing

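Egr1, the member called in the germline comparison, kept that call with pseudocounts of 0.5 and 5, no filter, quantile normalization, the per kilobase scale and no trend, and lost it with the Y-linked covariate. The germline count of 1 member became 2 with quantile normalization (Atf3 added), 2 on the per kilobase scale (Junb added), 3 without the trend (Atf3 and Junb added) and 0 with the Y-linked covariate, and ran from 0 to 4 over omissions of 1 library. The germline count of 4 other early genes, counted in either direction, became 1 with that covariate (Myc, lower) and ran from 0 to 16. The inducible count of 0 members ran from 0 to 1 over omissions, and that of 2 other early genes became 1 with a pseudocount of 5 and 0 on the per kilobase scale, and ran from 0 to 3. The cause of these shifts was not tested. The share of all genes called was not counted for other pseudocounts, quantile normalization, the per kilobase scale, no trend or the Y-linked covariate. Whether the counts of members moved with that share is therefore unknown. The number of genes called without a filter on low values was 552 in the germline comparison, against 382 with it.

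The direction of some small changes turned. In the germline comparison Jun gave -0.0063 with the Y-linked covariate. Over omissions of 1 library Jun ran from -0.28 to 0.60, Ier2 from -0.13 to 0.47, Klf4 from -0.51 to 0.38 and Dusp1 from -0.35 to 0.11 in the germline comparison. In the inducible comparison Fos, where it could be tested, ran from -0.53 to 0.51, Junb from -0.17 to 0.089, Dusp1 from -0.15 to 0.079 and Klf2 from -0.027 to 0.16. None of these was called under the main settings.

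Replicate numbers are shared between groups, but the labels do not say whether they pair the libraries. Correlations could not settle it, since the libraries are few and the deviations of the inducible controls mirror each other. Correlations across genes of same-numbered deviations were -0.116, 0.306 and 0.247 in the germline and -0.352 and -0.0513 in the inducible table, and germline wild-type replicate 1 correlated best with knockout replicate 2. With a replicate block the counts were 1 member and 4 other early genes in the germline comparison (376 genes in all, with Bhlhe40 and Per1 called in place of Nr4a1 and Zfp36l1, and Map2k1 lost) and 0 members and 0 other early genes in the inducible one (163 genes in all, against 182), where Fos gave -0.17 and Klf2 -0.027. Inducible knockout replicate 3 has no control of the same number, so it added nothing to the fold changes of that block fit. Klf2 gave the same -0.027 without a block when that library was left out. With 2 or 3 libraries a group and unknown depth, Fosb could not be tested, and Fos and Atf3 rest on few counts.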
